A study of Mus musculus with 38 samples.

Results

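The region described here is a 450 kb stretch of mouse chromosome 3 (mm9, chr3:98370000-98820000) that carries 5 genes of the 3β-hydroxysteroid dehydrogenase family, Hsd3b5, Hsd3b2, Hsd3b3, Hsd3b6 and Hsd3b1, followed by Hao2. Its members are all histone-mark peaks of male and female liver that overlap this stretch by at least 1 bp, 157 of the 384017 peaks of the series. Of these, 85 came from the male and 72 from the female peak lists. The stretch was chosen because its marks differ between the sexes, from the same male to female comparison that is reported below. The ratios, calls and counts are therefore given as a description, without a test.

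The 3β-hydroxysteroid dehydrogenases are membrane-bound enzymes of steroid metabolism. Most of them oxidise the hydroxyl group of the steroid A ring and move a double bond, a step in the making of progestins, androgens and mineralocorticoids. Mouse Hsd3b1 and Hsd3b6 are known from steroid-producing glands, and Hsd3b6 also from the placenta. Hsd3b2 and Hsd3b3 are known from liver and kidney, and Hsd3b5 is known from the liver of adult male mice as an enzyme that reduces ketosteroids. Hao2 encodes a peroxisomal oxidase of 2-hydroxy fatty acids. Sex differences in mouse liver are known to follow the sex-dependent pattern of growth hormone release, which acts on liver genes through STAT5. Of the marks, H3K4me3 lies at active promoters, H3K27ac at active promoters and enhancers, H3K4me1 at enhancers and promoter flanks, and H3K36me3 over transcribed gene bodies. These are called the 4 active marks below. H3K27me3, the mark of Polycomb, and H3K9me3 lie over silent chromatin.

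The livers were from males and females of the outbred CD-1 stock, 8 weeks old, and the labels name no treatment. The 1 IgG library used below was a male CD-1 library, labelled as 7 to 8 weeks old. Chromatin immunoprecipitation with sequencing was done for each mark, with 4 male and 3 female libraries for H3K4me3 and H3K4me1, 3 and 3 for H3K27ac and H3K27me3, and 2 and 2 for H3K36me3 and H3K9me3. Libraries of the same mark and sex had identical peak files, which makes 12 pooled lists, and no value has a spread between animals. Nothing in the labels says which libraries came from separate animals. The lists held between 1526754 and 20459697 reads in peaks. For every peak the authors' deposited table gives the log2 of its male signal divided by its female signal, and a call. A peak was called male or female where the absolute log2 was at least 1 and the p-value below 0.001. In a tissue such as liver, fewer cells with a mark and less mark per cell cannot be told apart. A check at marker genes was narrow, because 2 of 5 hepatocyte genes and 1 of 4 genes of other cells could be placed on the genome. Alb and Apoa1, which encode plasma proteins of hepatocytes, had H3K4me3 and H3K27ac peaks at their starts in the male and the female lists, and the H3K4me3 at Alb was called male per the authors' deposited table. Ptprc, a gene of blood cells, had an H3K27ac peak in either list and an H3K4me3 peak in neither.

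All 6 genes are on the minus strand, so each gene body runs from its start towards lower positions. Starts were placed on mm9 through reads of a male IgG library that match the promoter sequences exactly. The Hsd3b5 start lay at 98449458, Hsd3b2 at 98528467, Hsd3b3 at 98567052, Hsd3b1 at 98663718 and Hao2 at 98697154. Hsd3b2 thus lay 79.0 kb from the Hsd3b5 start, Hsd3b3 117.6 kb, Hsd3b1 214.3 kb and Hao2 247.7 kb. Of the 2 starts listed for Hsd3b3, 1 was placed. No read matched the Hsd3b6 promoter, so Hsd3b6 is known here only to lie between Hsd3b3 and Hsd3b1 in the gene order. The placements of Hsd3b5 and Hsd3b3 rest on 1 matching read each, that of Hsd3b2 on 4, and those of Hsd3b1 and Hao2 on 3 each.

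The 250 bases before each placed start are shown because they let the gene copies be compared at their starts. They are RefSeq sequences of GRCm38.p6, written 5′ to 3′ on the minus strand, with the mm9 placement of each window after its name. Capitals mark the longest run of bases shared by the Hsd3b5 and Hsd3b3 windows, the STAT5 motif in Hsd3b1 and the HNF1 half-sites in Hao2.
Hsd3b5, chr3:98449459-98449708: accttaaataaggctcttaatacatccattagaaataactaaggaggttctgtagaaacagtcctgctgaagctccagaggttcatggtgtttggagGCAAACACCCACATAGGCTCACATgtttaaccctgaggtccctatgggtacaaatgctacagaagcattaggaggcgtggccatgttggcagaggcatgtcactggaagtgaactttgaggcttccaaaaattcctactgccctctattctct
Hsd3b3, chr3:98567053-98567302: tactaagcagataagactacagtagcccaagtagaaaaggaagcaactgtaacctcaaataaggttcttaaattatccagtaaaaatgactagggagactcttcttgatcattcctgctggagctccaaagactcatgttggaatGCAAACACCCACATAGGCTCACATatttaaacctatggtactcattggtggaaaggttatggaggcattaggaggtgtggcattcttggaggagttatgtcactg
Hsd3b2, chr3:98528468-98528717: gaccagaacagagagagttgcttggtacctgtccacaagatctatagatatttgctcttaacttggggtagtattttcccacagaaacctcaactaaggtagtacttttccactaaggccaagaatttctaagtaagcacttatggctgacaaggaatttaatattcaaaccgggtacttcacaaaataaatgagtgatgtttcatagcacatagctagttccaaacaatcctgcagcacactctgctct
Hsd3b1, chr3:98663719-98663968: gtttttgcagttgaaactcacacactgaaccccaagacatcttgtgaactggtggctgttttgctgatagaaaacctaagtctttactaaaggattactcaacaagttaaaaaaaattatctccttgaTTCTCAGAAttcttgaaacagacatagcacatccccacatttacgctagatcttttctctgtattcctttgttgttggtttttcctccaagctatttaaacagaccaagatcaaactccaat
Hao2, chr3:98697155-98697404: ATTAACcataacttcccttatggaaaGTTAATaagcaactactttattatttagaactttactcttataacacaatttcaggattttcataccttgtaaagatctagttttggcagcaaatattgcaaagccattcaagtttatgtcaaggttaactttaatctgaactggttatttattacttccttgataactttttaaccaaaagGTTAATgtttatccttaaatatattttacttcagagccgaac

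The Hsd3b5 and Hsd3b3 windows aligned over 202 columns with 151 identical bases, or 74.8% identity. Their longest shared run was 24 bases, which begins at -153 from the Hsd3b5 start and at -105 from the Hsd3b3 start. The other 14 pairs of windows shared runs of 7 to 10 bases and aligned locally over 9 to 38 columns. The windows were poor in GC, from 28.4% in Hao2 and 36.4% in Hsd3b1 to 45.2% in Hsd3b5 and 47.2% in Hsd3b6, against a median of 52.4% over all promoter windows of the table. Sequences were searched on both strands for 5 motifs of liver factors and of the core promoter. The STAT5 motif TTCNNNGAA was in Hsd3b1 alone, at -122, and in 7.0% of 32544 promoter windows. The HNF1 half-site GTTAAT was in Hao2, at -250, -224 and -42, and once in Hsd3b6, at -89, and in 6.5% of all windows. ATCAAT, bound by HNF6 and CUX2, was in none of the 6 windows and in 6.6% of all. TATAAA was likewise in none and in 12.3% of all, and TTGCNNAA of the C/EBP factors in none and in 9.6% of all. A match describes these letters only, and none of these factors was measured.

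The lower part of the window, around Hsd3b5, Hsd3b2 and Hsd3b3, carried more active marks in males, and the part around Hao2 carried more active marks in females and H3K27me3 in males. Counted over both lists, 40 of the 157 peaks were called male, 30 in the male and 10 in the female lists, and 16 were called female, 2 and 14. For H3K4me3, 8 of 13 window peaks were called male and 2 female per the authors' deposited table, against 2.77% and 0.907% of all H3K4me3 peaks. H3K27ac had 9 male and 4 female calls among 49 peaks per the authors' deposited table, with 1.19% and 1.91% over all peaks of that mark. For H3K4me1 the authors' deposited table held 16 male and 8 female calls among 72 peaks, and 4.54% and 2.28% over all. H3K36me3 had 3 male and 2 female calls among 16 islands per the authors' deposited table, with 0.321% and 0.213% over all. Of 6 H3K27me3 islands, 3 were called male and 0 female per the authors' deposited table, with 0.415% and 0.0253% over all. The single H3K9me3 island was called male per the authors' deposited table, where 1.34% of all islands were called male and 1.39% female. Since the window was picked on these ratios, the gap to the shares over all peaks is not a result.

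**Figure D1:**
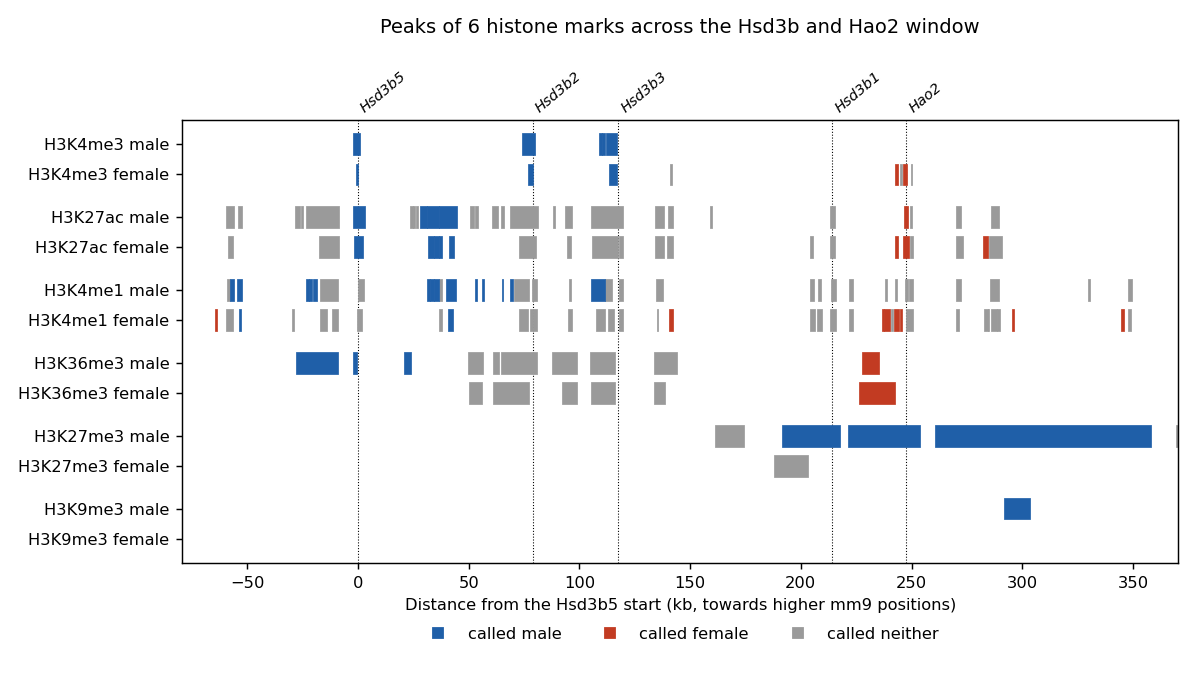
Peaks of the 6 marks along the window, drawn to scale by distance from the Hsd3b5 start in kb, with the male list above the female list of each mark and colour giving the call per the authors' deposited table. Dotted lines are the placed gene starts. Male calls of the 4 active marks lie at or below the Hsd3b3 start, and male H3K27me3 islands cover the Hsd3b1 and Hao2 starts, where the female list has an island only between Hsd3b3 and Hsd3b1.

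Reads in window peaks, divided by the list total, were higher in the male list for each of the 5 marks found in both sexes. For H3K4me1 this rests on the division. The log2 of male over female H3K4me1 reads was 0.75 with it and 0.047 without it (7036 reads in males and 6809 in females). For H3K27ac the same log2 was 0.56 with the division and 1.15 without it. Scaled to 1000000 reads in peaks of the list, H3K4me3 had 650.9 in males (exact Poisson 95% interval 629.0 to 673.5) and 197.9 in females (185.8 to 210.5). H3K27ac had 1135 in males (1120 to 1150) and 768.9 in females (753.8 to 784.2), and H3K4me1 had 560.1 (547.1 to 573.3) and 332.8 (324.9 to 340.8). These intervals cover counting error only. Since the window was picked on this comparison, the gaps between male and female values are a description. H3K36me3 had 332.1 in males (322.8 to 341.6) and 220.3 in females (212.3 to 228.6). H3K27me3 showed the widest gap of the 5 marks, with 483.6 in males (472.6 to 494.7) and 20.53 in females (18.42 to 22.8). Sums over separately called peaks move with the covered length, which was 186.4 kb in males and 15.2 kb in females for H3K27me3. For H3K4me3 it was 16.5 and 11.8 kb, for H3K27ac 104.1 and 74.2 kb, for H3K4me1 79.5 and 66.9 kb, and for H3K36me3 90.2 and 61.2 kb. Mean read density within window peaks, not divided by list totals, was higher in males for 4 of the 5 marks. H3K4me3 had 200.6 reads per kb in males and 85.29 in females, and H3K27ac had 209.9 in males and 133.1 in females. H3K36me3 had 53.59 in males and 46.37 in females, and H3K27me3 had 39.7 in males and 22.83 in females. For H3K4me1 it was 88.47 in males and 101.8 in females, the reverse order. Densities over the whole lists also differed, at 86.52 in males and 119.8 in females for H3K4me1 and 154.7 and 116.7 for H3K27ac. For H3K4me3 they were 156.1 and 155.9, for H3K36me3 47.13 and 40.68, and for H3K27me3 27.08 and 29.18. For H3K27ac, H3K36me3 and H3K4me1 the order of the sexes in the window was thus also that of the whole lists. That order alone is therefore not particular to the window for these marks.

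**Figure D2:**
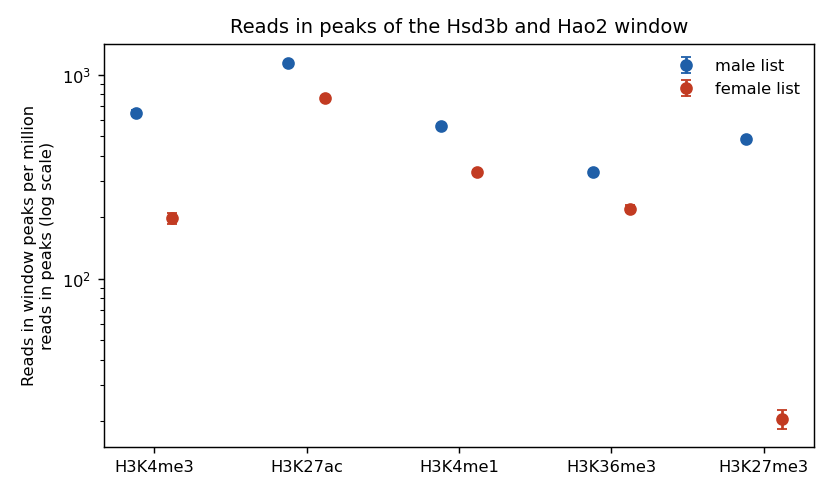
Reads in window peaks per 1000000 reads in peaks of the same list, on a log axis, for 5 marks, with the male list left of the female list and bars giving exact Poisson 95% intervals for counting error. Each male point lies above its female partner, from 332.1 against 220.3 for H3K36me3 to 483.6 against 20.53 for H3K27me3.

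Hsd3b5, the male liver ketosteroid reductase, had the strongest male ratio of H3K4me3 among the 5 placed starts. The male H3K4me3 peak at its start, from 98447341 to 98450502, held 1012 tags over 3162 bp, and the female peak, from 98448781 to 98449557, held 36 tags over 777 bp. The female peak was near the bottom of its list, with a false discovery rate of 99.49% per the authors' deposited table, and stood at percentile 99.92 by score, where 100 is the weakest. Log2 ratios for the pair were 3.55 for the male peak and 3.52 for the female peak in the authors' deposited table. By that ratio the male peak ranked 5 of 16018 from the top, and the female peak 1 of 18942, per the authors' deposited table. Promoter acetylation was also higher in males, with 2708 H3K27ac tags in males and 595 in females and log2 values of 1.57 and 1.60 per the authors' deposited table, called male for either peak. H3K4me1 had 248 tags in the male peak and 182 in the female peak, with log2 values of 0.93 and 0.66 per the authors' deposited table, and neither was called.

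Downstream of this start, over the side of the gene body, males had H3K36me3 and females had no island. The male island from 98421400 to 98440599 held 1455 reads against 251 control reads, or 3.66-fold over control, with a log2 of 1.65, per the authors' deposited table. Smaller male islands lay at the start, from 98447400 to 98449199 with 118 reads and a log2 of 1.08, and upstream, from 98470200 to 98473399 with 96 reads and 1.02, per the authors' deposited table. All 3 were called male, and none overlapped a female island, as for 19.2% of all male H3K36me3 islands. H3K27ac over the same stretch was not called. Its peak from 98426055 to 98440921 held 3408 tags in males, and the female peak from 98432019 to 98440902 held 1842, with log2 values of 0.24 and 0.15 per the authors' deposited table. H3K4me1 there included the male peak from 98429057 to 98430783, with 141 tags and a log2 of 2.12 per the authors' deposited table.

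Upstream of Hsd3b5, about 28 to 45 kb from its start, males had a block of H3K27ac that was split and thin in females. The male list had 3 adjoining peaks, from 98477649 to 98480539 with 258 tags, 98480690 to 98485943 with 2106, and 98486041 to 98494083 with 2450. In the authors' deposited table their log2 values were 1.87, 2.04 and 1.74. Across the same stretch the female list had 4 peaks, from 98481265 to 98483818 with 186 tags, 98483978 to 98485939 with 141, 98486027 to 98487564 with 168, and 98490549 to 98492761 with 174. Their log2 values per the authors' deposited table were 2.19, 1.71, 1.03 and 2.03, so all 7 peaks of the block were called male. The male peak of 2450 tags, over 8043 bp, had no H3K4me3 peak over it. The Hsd3b5 start peak held 2708 tags over a shorter 5351 bp. By log2 ratio, the 4 female peaks ranked 3, 16, 215 and 5 of 38306 from the top per the authors' deposited table. The 3 male peaks ranked 118, 82 and 165 of 40903 per the authors' deposited table. H3K4me1 in the block was called male for 5 of its 7 peaks per the authors' deposited table. The exceptions were the male peak from 98486092 to 98487409 with 134 tags and the female peak from 98486024 to 98487411 with 106, at 0.97 each per the authors' deposited table. The male peak from 98480760 to 98481843, with 102 tags, had a log2 of 2.58, the highest H3K4me1 ratio of the window per the authors' deposited table. The broadest male H3K4me1 peak there, from 98489194 to 98493903 with 447 tags, had 1.54 per the authors' deposited table, and the female peak from 98490013 to 98492508 with 173 tags had 1.29. Further male H3K4me1 peaks with high ratios lay from 98514298 to 98515154, with 46 tags and 2.14, and from 98394977 to 98397223, with 207 tags and 1.74, per the authors' deposited table.

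Hsd3b2 and Hsd3b3, family members of liver and kidney, shared the male H3K4me3 bias, but their acetylation was not called. At the Hsd3b2 start, H3K4me3 peaks held 995 tags in males over 5697 bp and 147 in females over 2044 bp, with log2 values of 2.16 and 2.22 per the authors' deposited table, called male in both lists. At the Hsd3b3 start, H3K4me3 peaks held 1155 tags in males, from 98561705 to 98566612, and 402 in females, from 98562829 to 98566490. These had log2 values of 1.38 and 1.37 per the authors' deposited table, also called male. Both end on the gene body side, short of the placed start and of the promoter window printed above. The male tag totals of the 3 start peaks, 1012, 995 and 1155, were close to each other, whereas the female totals, 36, 147 and 402, covered a wide range. These peaks differed in width, at 3162, 5697 and 4908 bp in males and 777, 2044 and 3662 bp in females. Tag totals move with the called width, so part of that contrast may lie in the widths, which was not tested. A pair of weaker male H3K4me3 peaks lay inside the Hsd3b3 side, from 98558139 to 98559700 with 78 tags and from 98559784 to 98560964 with 72. Their log2 values were 1.498 and 1.71 and their false discovery rates 24.94% and 14.45% per the authors' deposited table. Neither had a female partner, as for 8.96% of the male H3K4me3 list.

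H3K27ac at the Hsd3b2 start had 2992 tags in males, from 98517905 to 98530919, and 1106 in females, from 98522145 to 98529937, with a log2 of 0.68 for either peak per the authors' deposited table. At the Hsd3b3 start it had 4305 tags in males, from 98554857 to 98569341, and 2265 in females, from 98555099 to 98567051, with 0.29 and 0.30 per the authors' deposited table. A second female peak, from 98567290 to 98569328, had 197 tags and 0.18 per the authors' deposited table. These broad acetylated stretches were present in either sex, and none of them was called. H3K36me3 islands of this middle stretch were also found in both lists and not called. From 98514200 to 98530399 the male island had 1074 reads, and from 98510400 to 98526799 the female island had 787, with log2 values of 0.42 and 0.30 per the authors' deposited table. Near Hsd3b3, the male island from 98554400 to 98565599 had 682 reads and the female island from 98554600 to 98565599 had 561, with 0.087 and 0.092 per the authors' deposited table. Besides the male-called island upstream of Hsd3b5 given above, 5 further H3K36me3 islands lay between the Hsd3b5 and Hsd3b3 starts, with log2 values from -0.42 to 0.47 per the authors' deposited table and none called. They were the male islands from 98499400 to 98505799, 98510400 to 98513199 and 98537200 to 98548399, and the female islands from 98499600 to 98505599 and 98541600 to 98548399. H3K4me1 at the Hsd3b2 and Hsd3b3 starts was not called, at 0.44 and -0.085 in the male list of the authors' deposited table.

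**Figure D3:**
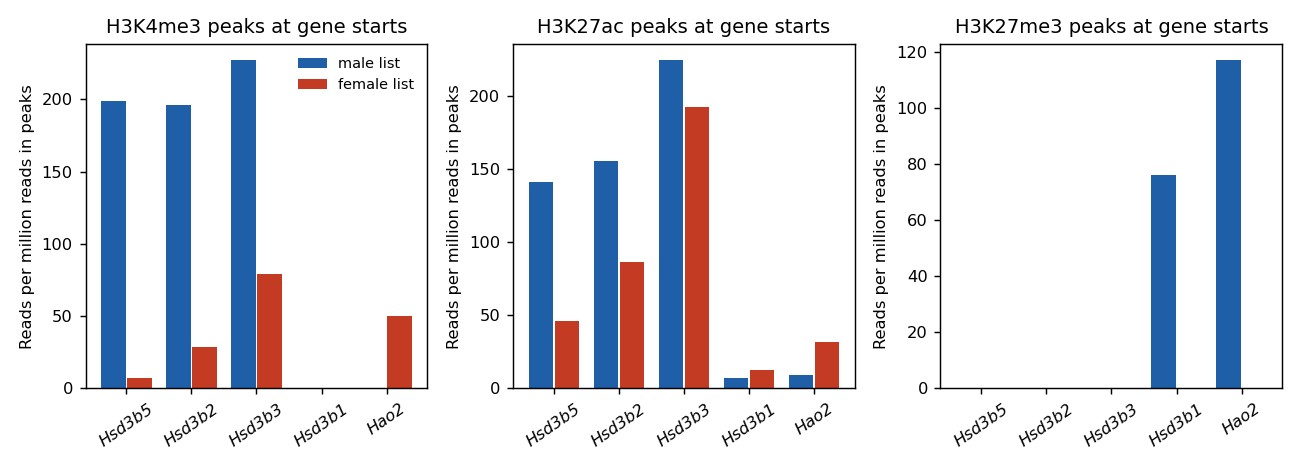
Reads in peaks within 1 kb of each placed start, per 1000000 reads in peaks of the list, for H3K4me3, H3K27ac and H3K27me3, with the male bar left of the female bar, a bar of 0 where no peak was called, and no error bars because each list is pooled. Male H3K4me3 stands at 199.0, 196.0 and 227.0 at Hsd3b5, Hsd3b2 and Hsd3b3, while female values are 7.08, 28.9 and 79.1, and Hao2 has 49.96 in females and no male peak.

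Between the Hsd3b3 and Hsd3b1 starts, the interval that holds Hsd3b6, active marks were few and near balance. Its 19 peaks of the 4 active marks had a median log2 of -0.065 per the authors' deposited table, with 0 male calls and 1 female call. The called peak was a female H3K4me1 peak from 98589753 to 98591497, with 154 tags and -1.04 per the authors' deposited table. At the same place lay the only H3K4me3 peak of the interval, a female peak from 98590617 to 98591319 with 33 tags, whose log2 of -1.14 was not called per the authors' deposited table (p = 0.00996). This peak was weak, with a false discovery rate of 79.26% per the authors' deposited table. H3K36me3 was found in both lists, from 98583200 to 98593599 with 329 reads in males and from 98583400 to 98588199 with 128 in females, with 0.49 and 0.35 per the authors' deposited table, not called. Whether any of these peaks sits on the Hsd3b6 start was not tested, because that start was not placed.

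Hsd3b1, known from steroid-producing glands, lacked H3K4me3 at its start in either sex. Weak enhancer-type marks were present in both, with 131 H3K27ac tags in males and 166 in females and log2 values of -0.60 and -0.67 per the authors' deposited table. H3K4me1 had 151 tags in males and 306 in females, with -0.34 and -0.33 per the authors' deposited table, and neither mark was called. The start lay inside a male H3K27me3 island from 98641200 to 98667199, with 1166 reads and a log2 of 1.14 per the authors' deposited table, called male. The female island nearest to it, from 98637600 to 98652799 with 347 reads and 0.67 per the authors' deposited table, ended before the start.

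Hao2, the peroxisomal hydroxy acid oxidase gene, had the reverse of the Hsd3b5 pattern for H3K4me3 and H3K27ac at its start. H3K4me3 at its start was found in females alone, from 98695747 to 98697535 with 254 tags and a log2 of -2.22 per the authors' deposited table. Of all female H3K4me3 peaks, 18.4% had no male partner. A further female H3K4me3 peak in the gene body side, from 98692179 to 98693246 with 57 tags, had -1.45 per the authors' deposited table, and both were called female. The female H3K4me3 peaks from 98694109 to 98695017 with 39 tags and from 98699084 to 98699926 with 38 were not called, at -1.13 and 0.012 per the authors' deposited table. Their false discovery rates were 26.14% and 93.76% per the authors' deposited table. H3K27ac at the start had 178 tags in males and 406 in females, with -1.47 in either list of the authors' deposited table, called female. Females alone also had H3K27ac from 98692050 to 98693296, with 98 tags and -1.38, and from 98731776 to 98733906, with 114 tags and -1.53, per the authors' deposited table. Over the whole female H3K27ac list, 11.6% of peaks had no male partner. H3K36me3 on the gene body side covered 98677200 to 98684999 in males, with 225 reads, and 98676000 to 98692199 in females, with 954. The log2 values of the pair were -1.32 and -1.45 per the authors' deposited table, called female. By ratio, that male island was the most female of all 25517 male H3K36me3 islands per the authors' deposited table. The female island ranked 35 of 19057 from the female end of its list per the authors' deposited table.

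H3K4me1 around Hao2 was mixed. The start peaks covered different stretches, from 98696408 to 98698037 with 130 tags in males and from 98697210 to 98699997 with 392 in females. Their log2 values were 0.51 and -0.32 per the authors' deposited table, not called. The female peak also overlapped a second male peak, from 98698525 to 98700053, with -0.37 per the authors' deposited table, so the signs do not compare the same stretch. In the gene body side, 4 female H3K4me1 peaks were called female, the strongest from 98694049 to 98694989, with 89 tags and -1.90 per the authors' deposited table. Distal female peaks from 98744817 to 98745897, with 81 tags, and from 98794275 to 98795462, with 122 tags, had -1.84 and -1.87 per the authors' deposited table. At the opposite end of the window, a female H3K4me1 peak from 98385026 to 98385621, with 39 tags, had -1.89 per the authors' deposited table, the only female call below the Hsd3b3 start. Its false discovery rate was 47.21% per the authors' deposited table. Near it, the female-list peak from 98395911 to 98396638 had 52 tags and 1.52 per the authors' deposited table, called male.

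H3K27me3 lay over the Hsd3b1 and Hao2 side, mostly in males, and neither list had an island below the Hsd3b3 start. The male island over Hao2, from 98670800 to 98703199, held 1793 reads against 359 control reads, given as 2.58-fold over control in the authors' deposited table. It had a log2 of 2.06 per the authors' deposited table, 26 of 20048 from the top. Beyond Hao2, the male island from 98710000 to 98807599 spanned 97.6 kb with 3518 reads and a log2 of 1.47 per the authors' deposited table. Neither had an island in the female list, as for 19.5% of all male H3K27me3 islands, and both were called male. The male islands from 98610800 to 98623999, with 431 reads and 0.50, and from 98818800 to 98835999, which crosses the window's edge, with 493 reads and 0.57, were not called per the authors' deposited table. H3K9me3 had 1 island, in males from 98741200 to 98753199, inside the long H3K27me3 island. It held 101 reads against 99 control reads, with a log2 of 1.35 per the authors' deposited table, and the female list had no island in the window.

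Over the male-called H3K27me3 islands, 38 of 49 active-mark peaks were on the female side of 0 per the authors' deposited table. Of the active-mark peaks, 49 overlapped a male-called H3K27me3 island, with 0 male and 14 female calls and a median log2 of -0.76 per the authors' deposited table. The 101 that did not overlap one had 36 male and 2 female calls and a median of 0.66 per the authors' deposited table. Some active peaks in the male islands stayed on the male side of 0, 11 of 49 per the authors' deposited table. Most of the female calls lay over the Hao2 island, and the island over the Hsd3b1 start had no called active peak. In the island beyond Hao2, 1 of 4 male-list H3K4me1 peaks was below 0 per the authors' deposited table. A place with peaks in both lists counts in each. Shares over all peaks of each mark are given above, and these counts are a description, because the window was picked on these ratios. Whether H3K27me3 and the active marks lay on the same chromosomes or in different cells cannot be told apart in pooled liver.

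The sex ratio of the active marks declined along the chromosome from Hsd3b5 to Hao2. Peaks were assigned to intervals by their centres. From the window's lower edge to the Hsd3b5 start, 24 active-mark peaks had a median log2 of 0.83 per the authors' deposited table, with 10 male calls and 1 female call. Between the Hsd3b5 and Hsd3b2 starts, 42 peaks had a median of 1.03 per the authors' deposited table, with 21 male and 0 female calls. From Hsd3b2 to Hsd3b3, 21 peaks had 0.29, with 5 male and 0 female calls, per the authors' deposited table. Past the near-balanced Hsd3b6 interval, the 21 peaks between the Hsd3b1 and Hao2 starts had a median of -1.05 per the authors' deposited table, with 0 male and 11 female calls. The last 23 peaks, beyond Hao2, had -0.37 per the authors' deposited table, with 0 male and 3 female calls. All 36 male calls of the active marks thus lay below the Hsd3b3 start, and 15 of the 16 female calls above it.

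**Figure D4:**
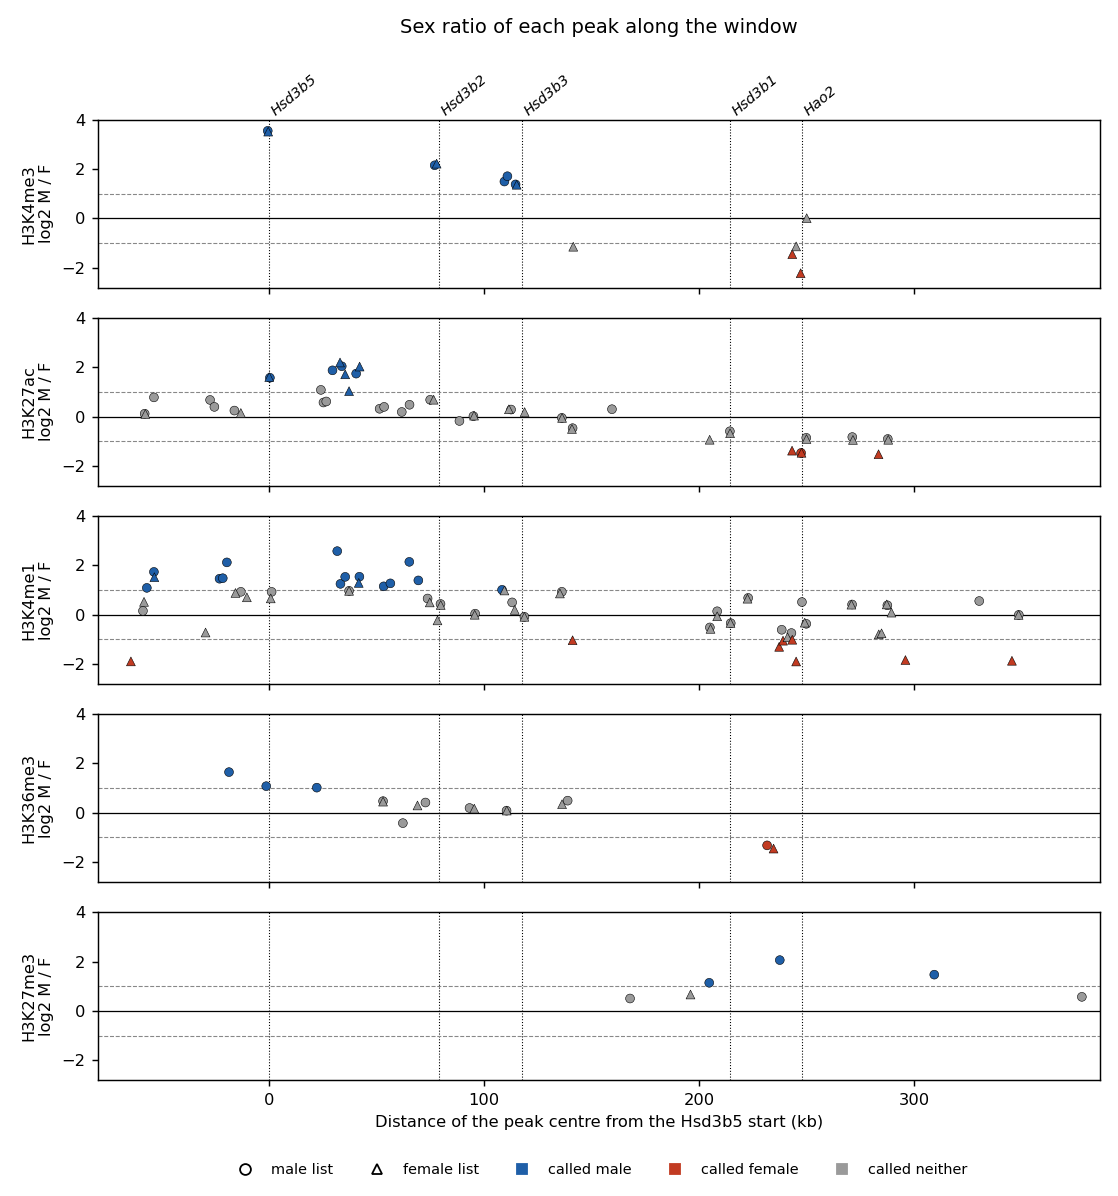
Log2 of male over female signal per the authors' deposited table for each peak against the distance of its centre from the Hsd3b5 start in kb, for 5 marks, with circles for the male list, triangles for the female list, colour for the call and dashed lines at log2 of 1 and -1. H3K4me3 falls in steps, with 3.55 at Hsd3b5, 2.16 at Hsd3b2 and 1.38 at Hsd3b3 in the male list and -2.22 at Hao2 in the female list, and H3K27me3 appears only in the upper part.

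As a description over peaks of 1 pooled list each, which share libraries and neighbours, the Pearson correlation of position with the log2 per the authors' deposited table was -0.72 for male (28 peaks) and -0.81 for female H3K27ac (21 peaks). Spearman values for the same lists of the authors' deposited table were -0.70 and -0.84. H3K4me1 had Pearson values of -0.65 for males and -0.46 for females (36 peaks each), with Spearman values of -0.68 and -0.48, per the authors' deposited table. For H3K36me3 the Pearson values were -0.86 (10 islands) and -0.91 (6 islands) and the Spearman values -0.75 and -0.66, per the authors' deposited table. The female H3K36me3 value turns on 1 island, that of Hao2 at -1.45, since the other 5 lay between 0.092 and 0.45 per the authors' deposited table. Of the window's H3K27ac peaks, 17 of 28 in males and 19 of 21 in females overlapped an H3K4me1 peak of the same sex, against 85.5% and 89.6% over the whole lists. The difference between the sexes in these shares was not tested.

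At placed gene starts, calls of the kinds seen here were rare. Within 1 kb of a start, H3K4me3 was called male at 3 of the 5 placed members and female at 1 per the authors' deposited table, against 1.04% and 0.318% of 12598 placed genes. H3K27ac was called male at Hsd3b5 and female at Hao2 per the authors' deposited table, where 0.286% and 0.397% of placed genes had such calls. H3K36me3 was called male at Hsd3b5 and H3K27me3 at Hsd3b1 and Hao2 per the authors' deposited table, with 0.0476% and 0.151% of placed genes. Nothing is read from these shares, because the members were chosen on this comparison. Genes could be placed only where an IgG read met the promoter window, and the effect of that on the shares was not tested.

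Of a list of 30 other genes of steroid and 2-hydroxyacid metabolism, 15 could be placed, and 12 of the 15 had H3K4me3 at a start in males and 12 in females, against 47.6% and 48.4% of all placed genes. H3K4me3 was called male at 3 of the 15 and female at 0 per the authors' deposited table, with the shares of 1.04% and 0.318% over placed genes given above. H3K27ac was called male at 1 and female at 0 per the authors' deposited table. Akr1c6, a 17β-hydroxysteroid dehydrogenase of mouse liver, had 1670 H3K4me3 tags in males and 645 in females, with log2 values of 1.27 and 1.26 per the authors' deposited table. Sult2a8, a liver sulfotransferase, had 2 placed starts. At the one at 15031937 on chromosome 7, a male H3K4me3 peak of 237 tags had a log2 of 3.98 per the authors' deposited table, and the female list had none. H3K27ac there had 818 tags in males and 174 in females, with 1.55 and 1.52 per the authors' deposited table. At the other start, at 15023901, H3K4me3 had 852 tags in males and 416 in females, with 0.79 and 0.63 per the authors' deposited table, not called. Hsd17b12, an enzyme of fatty acid elongation, had a small female-list H3K4me3 peak near its start, of 64 tags, with 1.16 per the authors' deposited table. None of the 15 was called for the other marks per the authors' deposited table, which says little because such calls were rare at all placed genes. The shares called male and female there were 1.17% and 0.802% for H3K4me1, 0.0476% and 0.0318% for H3K36me3, 0.151% and 0.00794% for H3K27me3, and 0.286% and 0.0873% for H3K9me3. Cyp11a1, Cyp19a1 and Srd5a2, genes of steroid hormone synthesis and conversion, had H3K27me3 at their starts and no H3K4me3 in either sex.

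Genes with the same calls at their starts were picked out after the values were seen. Like Hsd3b5, 14 of 12598 placed genes (0.111%) had male calls for H3K4me3 and H3K27ac per the authors' deposited table. Besides Hsd3b5 they included Cyp2d9 and Cyp4a32, both cytochrome P450 genes, Mup21 of the major urinary proteins, C6 of complement, Nat8 and Sult2a8. Like Hao2, 7 (0.0556%) had a female H3K4me3 call with a male H3K27me3 call per the authors' deposited table. These were Cyp2b10, Cyp2c69 and Cyp3a44, again P450 genes, Fmo2, Kyat3, Slc22a26 and Hao2, and 6 of them, all but Fmo2, also had a female H3K27ac call per the authors' deposited table.

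Outside the window, only the nearest peak of each list on each side was looked at, which cannot show where the sex difference ends. These peaks lay 19.6 to 414.0 kb from the window. The nearest H3K4me3 peaks outside it were 137.4 kb away on the lower side and 124.3 kb on the upper side in males, and 137.2 and 124.3 kb in females, and none was called per the authors' deposited table. Of the nearest peaks of each list on each side, 1 was called, a female H3K27ac peak 158.5 kb below the window, with 43 tags and a log2 of -1.54 per the authors' deposited table. Over all H3K27ac peaks, 1.91% were called female per the authors' deposited table. The closest of all was a male H3K27me3 island 19.6 kb above the window, with a log2 of 0.86 per the authors' deposited table, which was not called. Just inside the edges lay the female H3K4me1 peak at 98385026 and the male H3K27me3 island that crosses the upper edge, both described above.

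Reads could in principle be misplaced among near-identical family copies, and ratios of single Hsd3b genes are uncertain to that extent. The 1 male IgG library analysed here had 1885 reads in the window, or 4.19 per kb (exact Poisson 95% interval 4.0 to 4.38), 0.956 times the autosomal mean of 4.38. Intervals between starts ranged from 0.81 to 1.19 times that mean, and stretches within 5 kb of a start from 1.03 to 1.51. Of 450 bins of 1 kb, 99 had no IgG read. The share of such bins over the autosomes was not computed, and whether reads could be placed in the empty bins was not tested. Control reads in the window's male H3K27me3 islands, 9.85 to 11.1 per kb, were a little above the median of that list, 9.07. In the male H3K36me3 islands they ran from 6.88 to 19.6 per kb, around a list median of 10.3.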

How the data were processed

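Male and female CD-1 livers were profiled for 6 histone marks. The authors aligned reads with Bowtie to mm9 and called H3K36me3, H3K27me3 and H3K9me3 islands with SICER 1.1, per the submitters' processing notes. Which caller made the other lists is not stated there. The deposited values are raw counts of reads or tags per peak (some H3K27ac tags to 3 significant digits), fold ratios over control, scores of minus 10 times the log10 p-value, false discovery rates in percent, and a log2 sex ratio with its p-value. The authors' p-values compare pooled libraries, and how their log2 ratios were normalised is not given. All 384017 calls equal an absolute log2 of at least 1 with p below 0.001.

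The 34 peak files reduced to 12 distinct lists, so nothing was tested between animals. Reads in peaks were divided by list totals, which ran from 1526754 to 20459697. Gene starts came from the RefSeq promoter table of GRCm38.p6, placed on mm9 where 35-base reads of the deposited IgG file (11201113 reads) matched exactly; 12598 genes were placed. Placement and overlap were tested on simulated data. Python 3.11.15, pandas 2.3.3, scipy 1.17.1 and biopython 1.88 were used. Members, gene lists and motifs were chosen with earlier results of these data known. Named peaks were those at member starts, up to 5 called peaks per list with the largest ratios, and every island of the SICER marks; others were chosen after their values were seen. Alternatives varied the call threshold, partner overlap, list length, scaling, start distance and IgG duplicates.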

Additional observations from a re-analysis of the deposited data

How the results depend on the processing

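No paired analysis was possible because the files of a mark and sex are identical and hold no replicate values; leaving out each replicate could not be done for the same reason. Of 84 recomputed counts, 58 were identical, 8 changed by no more than 1.5 times, and 18 changed by more. Of 28 other values, 22 kept their call or stayed within counting error. Centring on peaks with a partner, keeping only peaks wholly inside the window and an overlap of 50% moved no count by more than 1.5 times. The first 2 of these settings could change little. Centring shifted ratios by list medians between -0.132 and 0.111, and the island that crosses the window's edge was not called. No value reversed. In the authors' deposited table, an absolute log2 of at least 2 left 4 male and 1 female H3K4me3, 3 and 0 H3K27ac, 3 and 0 H3K4me1, 0 and 0 H3K36me3, 1 male H3K27me3 and 0 male H3K9me3 calls. Keeping the better-scoring 50% of each list left, in the authors' deposited table, 4 male and 1 female H3K4me3 and 7 male and 1 female H3K27ac calls. It also left 6 male and 3 female H3K4me1, 2 male and 1 female H3K36me3, 3 male H3K27me3 and 1 male H3K9me3 calls per the authors' deposited table. In that 50%, the log2 of male over female reads in window peaks was 2.35 for H3K4me3 (main value 1.72), 0.63 for H3K27ac (0.56) and 1.14 for H3K4me1 (0.75), and none could be given for H3K27me3. Without division by list totals it was 1.15 for H3K27ac, 0.047 for H3K4me1 and 0.77 for H3K36me3 (0.59). The male excess of H3K4me1 reads is thus small without that division. With the longer list shortened, 2 female H3K4me3 peaks of the window had no partner, against 5 of 8 in the full lists. Over the full female H3K4me3 list, 18.4% of peaks had no partner. Within 5 kb, 3 member starts had a female H3K36me3 island, against 0. The lists hold no replicate spread, so how far any value varies between animals is unknown, and peaks of few tags, such as the female H3K4me3 peak at Hsd3b5, are limited by depth.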
